A study of Danio rerio with 61 samples.

Results

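WIK (Wild India Kolkata) is a wild-type laboratory strain of zebrafish, and its hearts were profiled beside those of 6 other strains before and after cryo-injury. The differences described here are those that set WIK ventricles apart at every stage, whether or not the heart had been injured. WIK contributed 9 of the 61 libraries, with 3 fish that were uninjured, 3 at 1 day post cryo-injury (dpci) and 3 at 7 dpci. They were compared with 35 libraries of 4 strains at the same stages, namely AB, KCL (Kings College London), SAT (Sanger AB Tübingen) and TL (Tupfel long fin), each with 3 fish per stage apart from SAT at 1 dpci with 2 fish. Fish of a group are separate animals. Every library was made from the RNA of 1 ventricle of an age-matched adult fish of unstated sex, both sexes having been used, and the injury was a freeze wound at the tip of the ventricle. KCL was bred in the facility of the study, whereas the others were brought in as embryos from outside stocks, so a strain and the stock it came from cannot be told apart. A gene was counted as constant when its WIK level differed more than 2-fold from the mean of the 4 strains, taken on the log scale. This had to hold in the same direction at all 3 stages, with an adjusted p below 0.05 at each. Of 16890 genes tested, 88 met this rule, 56 of them higher and 32 lower in WIK. Levels are in CPM, the counts of a gene divided by the TMM-scaled total of the library and given per 1e6 counts. Fold changes and their standard errors (SE) are on the log2 scale. The SE was not estimated directly. It is the absolute fold change divided by the square root of the F statistic of its edgeR test. Because strains were averaged on the log scale, a fold change can differ from the ratio of the mean CPM values printed beside it.

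Zebrafish strains are kept as separate stocks that differ in sequence and in gene content, and such differences can alter the amount of a transcript in every tissue and condition. Expression that is fixed by strain is therefore a background on which injury acts, unlike the wound response, in which damaged tissue is first cleared by immune cells and then replaced by dividing cardiomyocytes. The core class I region of the major histocompatibility complex (MHC) is known in zebrafish for haplotypes that differ in which genes they carry. Proteins of this region cut peptides in the proteasome, carry them into the endoplasmic reticulum and load them onto class I molecules for display to T cells.

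The depth of the WIK libraries lay inside that of the reference. Total counts were between 3153565 and 4525725 in WIK and between 2943684 and 5538019 in the 4 strains. Counts outside mitochondrially encoded genes were between 999785 and 2039839 in WIK, against 991472 to 2146167 in the 4 strains. The heart muscle marker myl7 was at 3460 to 8744 CPM in WIK and 1874 to 10540 CPM in the 4 strains. The liver marker fabp10a was at 0 in all WIK libraries and reached 1.43 CPM in the 4 strains. The skeletal muscle marker mylpfa reached 18.3 CPM in WIK and 576 CPM in the 4 strains. Atrial myh6 was at 117 to 382 CPM in WIK and 6.86 to 607 CPM in the 4 strains. The stage was read from the title, with which the day label disagreed in 6 of the 61 libraries. Of these 6, 1 was a WIK library (1 dpci, replicate 55), and 4, that one included, belonged to the 5 strains compared. The remaining 17 libraries came from the strains NA (Nadia) and TU (Tübingen), and they were left out of the reference because the uninjured libraries of each name looked like the injured libraries of the other. For sppl2, for example, the 3 uninjured NA fish had 7.20, 8.76 and 7.17 CPM and the 6 injured NA fish at most 0.986 CPM, whereas the 3 uninjured TU fish had 0 CPM and 4 of the 5 injured TU fish 2.48 to 6.82 CPM. NA and TU are therefore used below as 1 pool of fish outside the reference, although they entered the estimate of the spread. With only the 44 libraries of the 5 strains in the fit, 92 genes were constant, 82 of them among the 88.

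At single stages, 511 genes (3.03%) differed in uninjured hearts, with 289 higher (1.71%) and 222 lower (1.31%) in WIK. At 1 dpci 406 genes (2.4%) differed, 224 higher (1.33%) and 182 lower (1.08%), and at 7 dpci 352 genes (2.08%), 216 higher (1.28%) and 136 lower (0.805%). The 3 stages used different fish, and their calls never went against each other. Of the 511 genes called in uninjured hearts, 147 (28.8%) were called in the same direction at 1 dpci and 163 (31.9%) at 7 dpci. By sign alone, 89.4% and 93.2% of them lay on the same side at 1 and 7 dpci, against 59.8% and 61.4% of all genes tested. Of the 923 genes called at any stage, 170 were called at exactly 2 stages and 88 at all 3, which is 0.521% of the genes tested (0.332% higher and 0.189% lower). The split between directions depended on the tool and the filter, since DESeq2 called 246 higher and 277 lower in uninjured hearts, 181 higher and 266 lower at 1 dpci, 175 higher and 169 lower at 7 dpci and 47 higher and 46 lower at all 3 stages, with 74 of the 88 constant genes among these. The lower genes were also the more numerous without a filter on low counts (386 higher and 393 lower in uninjured hearts, 307 and 350 at 1 dpci), with a stricter filter (255 and 264, 212 and 217) and, at 1 dpci, without KCL in the reference (185 and 186). Fewer genes passed when a WIK fish was left out. Without WIK uninjured replicate 1, 2 or 3, the uninjured counts became 172, 184 or 158 higher and 117, 118 or 102 lower. Without WIK replicate 55, 56 or 57, the lower genes at 1 dpci numbered 93, 111 or 102, and without replicate 55 or 56 the higher genes numbered 136 or 145. Without WIK replicate 58 or 60, the 7 dpci counts were 134 or 126 higher and 61 or 59 lower, and the constant lower genes 21 or 18. Genes close to the threshold were bambib, cep19 and si:ch211-213a13.2, with their least favorable stage at an adjusted p of 0.0489, 0.0478 and 0.0464, and just outside it tnfaip8l1, si:dkey-185e18.7 and acsf2, at 0.0506, 0.0508 and 0.0514 (edgeR).

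Averaged over stages, the higher genes had a median log2 fold change of 2.58 (1.05 to 8.10) and the lower genes a median of −3.43 (−7.90 to −1.13). From the stage with the smallest to the stage with the largest difference, the fold change of a gene moved by a median of 0.67 for higher and 1.30 for lower genes on the log2 scale. A test of whether the WIK difference depended on stage called none of the 88 genes and 2 of all genes (0.0118%) by edgeR (lowest adjusted p among the 88 = 0.364), while 8 of the 88 had an unadjusted p below 0.05, against 7.5% of all genes. DESeq2 called 2 of them, cdh13 and CR318588.3. In 20 of the 56 higher and 15 of the 32 lower genes, all WIK fish lay outside all fish of the 4 strains at each stage, which held for 40 of all genes tested (0.237%). With the stages pooled, the 9 WIK fish lay above all 35 fish of the 4 strains in 12 genes and below them in 11 genes. Because these genes were chosen by the same contrasts, the counts describe the choice and are no separate evidence for it.

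**Figure D1:**
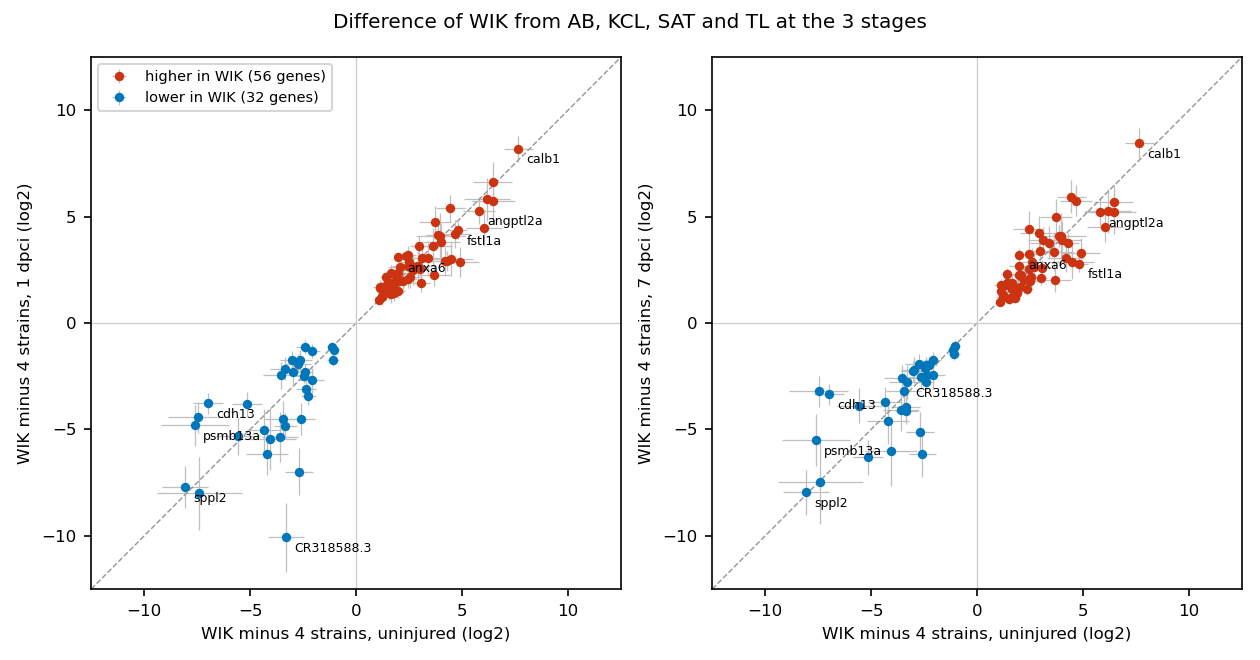
Difference between WIK and the mean of AB, KCL, SAT and TL (log2 fold change) for the 88 constant genes, with the uninjured difference on the horizontal axis of both panels and that at 1 dpci (left) or 7 dpci (right) on the vertical axis. Points are genes (red, 56 higher in WIK; blue, 32 lower), grey bars are 1 SE, and points on the dashed line have the same difference at both stages; CR318588.3 lies far below the line at 1 dpci, where its 3 WIK fish had no count.

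Calbindin 1 (calb1, ENSDARG00000031598, chromosome 16, 36765934 to 36798783 of GRCz11 as deposited, minus strand), a protein that binds and buffers calcium, had the highest stage-averaged fold change of the 88 genes. WIK ventricles had 18.9, 3.74 and 33.9 CPM when uninjured, 35.1, 54.1 and 28.9 CPM at 1 dpci and 20.2, 22.6 and 24 CPM at 7 dpci. In the 4 strains the median was 0 CPM at each stage, and the highest fish had 0.899, 1.37 and 0.997 CPM at the 3 stages. Every WIK fish was above every other fish, the 17 NA and TU fish being at 0 CPM. The stage-averaged log2 fold change was 8.10 (SE 0.39, adjusted p = 5.8e-16, edgeR). No AB fish had a count of calb1, so this size depends in part on the small prior count that the method adds. Calb1 was constant in 13 of 14 alternatives, DESeq2 being the exception, and in all 44 fits that left out 1 library. Alternatives that only loosened the threshold of the same fit could not lose a constant gene.

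Fstl1a, a secreted glycoprotein of the follistatin family whose mammalian counterpart has been studied as a signal of the epicardium, was higher in WIK as well (ENSDARG00000015559, chromosome 1, 47459723 to 47485360, plus strand). Its levels in WIK were 32.4, 22.4 and 43.8 CPM in uninjured hearts, 40.8, 17.6 and 79.7 CPM at 1 dpci and 49.5, 39.3 and 52.5 CPM at 7 dpci. The 4 strains had medians of 1.34 (0 to 3.0), 2.65 (0.325 to 11.5) and 7.86 CPM (1.69 to 16.4) at these stages. All WIK fish were above all fish of the 4 strains, but the gap was narrower at 7 dpci, with log2 fold changes of 4.82 (SE 0.43), 4.35 (SE 0.40) and 2.79 (SE 0.38). In the 4 strains fstl1a rose by 2.55 on the log2 scale at 7 dpci over uninjured hearts (adjusted p = 2.8e-06), whereas the change in WIK was 0.52 (adjusted p = 0.76). The dependence of the WIK difference on stage did not pass (adjusted p = 0.435), although it did when no filter on low counts was applied. Its close relative fstl1b had a difference of 0.29 (adjusted p = 0.25).

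Cdkn1a and zfp36l2 were higher in WIK, without overlap with the fish of the 4 strains. Of the 17 NA and TU fish, 2 were in the WIK range for cdkn1a and 0 for zfp36l2. Cdkn1a (p21), an inhibitor of cyclin-dependent kinases that acts downstream of p53, had 7.63, 13.5 and 15.2 CPM in uninjured WIK hearts, 7.23, 3.73 and 8.41 CPM at 1 dpci and 17.2, 11.4 and 9.49 CPM at 7 dpci. The highest of the 35 fish of the 4 strains had 2.64 CPM, and their medians were 0.549, 0.816 and 0.742 CPM. Thus the lowest WIK fish was above all fish of the 4 strains, and the averaged log2 fold change was 3.66 (SE 0.29, adjusted p = 1.5e-14). The related inhibitor cdkn1bb, named after its value was seen, went the other way by −0.93 (SE 0.15), which is less than 2-fold. Another relative, cdkn1ba, differed by 0.02 (SE 0.15). Zfp36l2, which binds AU-rich elements of mRNAs and promotes their decay, had 79.2, 128.5 and 130.3 CPM in uninjured WIK hearts, 107, 124 and 100.5 CPM at 1 dpci and 73.7, 93.1 and 79.2 CPM at 7 dpci. No fish of the 4 strains had more than 35.9 CPM, and the averaged log2 fold change was 2.56 (SE 0.17). Both genes lay on separate chromosomes, cdkn1a on 22 (603382 to 607812) and zfp36l2 on 12 (25376639 to 25380028).

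**Figure D2:**
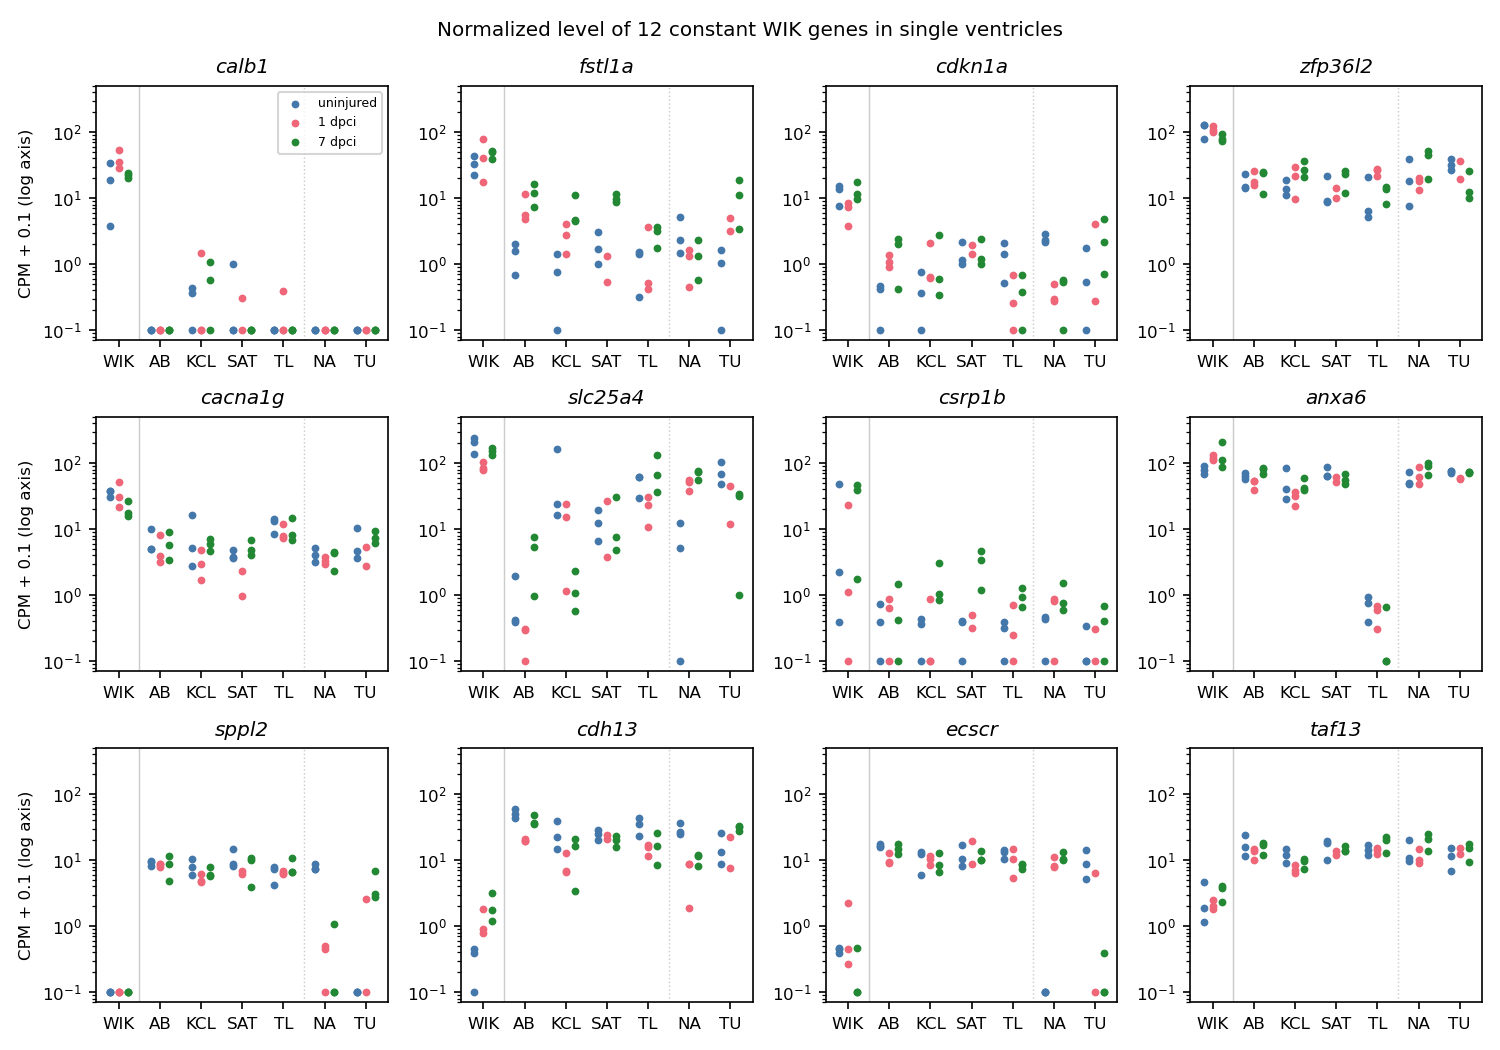
Level of 12 constant genes in each ventricle, as CPM plus 0.1 on a log axis, by strain, with a point for each fish (blue, uninjured; red, 1 dpci; green, 7 dpci). WIK stands at the left, the 4 strains of the reference next and NA and TU, which were outside the reference, at the right; calb1, fstl1a, cdkn1a and zfp36l2 of WIK lie above all fish of the 4 strains, sppl2, cdh13, ecscr and taf13 below them, csrp1b is high in 4 of the 9 WIK fish, and anxa6 is near 0 in TL alone.

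Among ion channels and transporters, WIK had more cacna1g, slc39a13, slc7a8a and slc25a4. Cacna1g encodes the pore of a T-type calcium channel, a kind of channel that opens near the resting potential and takes part in pacemaking. It had 38.2, 31.1 and 38.1 CPM in uninjured WIK hearts, 21.4, 50.9 and 30.6 CPM at 1 dpci and 26.8, 17.3 and 15.9 CPM at 7 dpci, against medians of 4.99, 3.89 and 6.32 CPM in the 4 strains. The fish did not overlap at any stage, and the difference was 2.37 (SE 0.18) on the log2 scale. It was the 1 constant gene among 99 tested genes of ion channels and calcium handling (1.01%, against 0.521% of all genes), of which 9 were higher and 3 lower in WIK on average over stages, or 12.1% against 6.44% of all genes. Casq2, the calcium-storing calsequestrin of the sarcoplasmic reticulum, was higher on average by 1.30 (SE 0.15) but was not constant. Slc39a13, a zinc transporter of the secretory pathway, was between 9.76 and 26.4 CPM in the 9 WIK fish and between 0.573 and 6.14 CPM in the 35 fish of the 4 strains. Slc7a8a, which carries large neutral amino acids, had 16.0, 18.1 and 22.6 CPM in uninjured WIK hearts, 54.6, 32.5 and 93.9 CPM at 1 dpci and 44.8, 29.3 and 34.9 CPM at 7 dpci. It was the constant gene that rose with injury in WIK at 1 dpci, by 1.68 on the log2 scale (adjusted p = 0.0030), and the change in the 4 strains was 0.95 (adjusted p = 5.5e-04), which is less than 2-fold. Slc25a4, chosen after its values were seen, encodes an ADP/ATP carrier of the inner mitochondrial membrane. WIK fish had 242, 139 and 210 CPM when uninjured, 78.2, 84.7 and 105 CPM at 1 dpci and 133, 155 and 169 CPM at 7 dpci. The 4 strains ranged widely and differently, with means of 1.84 CPM in AB, 13.9 in SAT, 27.3 in KCL and 49.9 in TL, and 1 uninjured KCL fish at 162 CPM fell among the WIK fish. The carrier slc25a5 had 2616 to 6631 CPM in WIK and 1946 to 7344 CPM in the 4 strains and differed by −0.04 (adjusted p = 1).

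The contractile and cytoskeletal genes gave less uniform differences. Myh7, a myosin heavy chain, was the 1 constant gene among 64 tested sarcomere genes (1.56%, against 0.521% of all genes). Of these 64 genes, 2 were higher and 3 lower in WIK on average over stages, or 7.81% against 6.44% of all genes. Myh7 had 199, 77.6 and 59.0 CPM in uninjured WIK hearts, 142, 113 and 112 CPM at 1 dpci and 1028, 452 and 510.1 CPM at 7 dpci. The medians in the 4 strains were 29.7 (10.2 to 421), 51.8 (10.3 to 175) and 270 CPM (124 to 690), so that the groups overlapped at each stage. The WIK difference was 1.24, 1.23 and 1.22 at the 3 stages, and injury at 7 dpci raised myh7 about equally in WIK (2.57 on the log2 scale, adjusted p = 0.0029) and in the 4 strains (2.59, adjusted p = 6.0e-11). The call was kept in 20 of the 44 fits that left out 1 library and in 8 of 14 alternatives, and the averaged difference was 0.85 without SAT in the reference and 1.00 without WIK uninjured replicate 1. Against TL alone myh7 differed by −0.30. The ventricular myosin myh7l differed by 0.07 (adjusted p = 0.80). Csrp1b, a LIM-domain protein chosen here after its values were seen, was high in 4 WIK fish and low in 5. The uninjured WIK fish had 48.4, 0.287 and 2.12 CPM, those at 1 dpci 0, 22.9 and 1.03 CPM and those at 7 dpci 45.9, 38.7 and 1.67 CPM, and no fish of the 4 strains had more than 4.61 CPM. It was no longer constant without WIK uninjured replicate 1 or WIK 1 dpci replicate 56. Anxa6, a calcium-dependent membrane-binding protein, was near 0 in TL. The mean was 111.9 CPM in WIK, against 63.7 CPM in AB, 42.8 in KCL, 62.3 in SAT and 0.406 in TL, and anxa6 was not constant when TL was left out of the reference. Microtubule-binding ckap5 was 12.1 to 25.3 CPM in WIK and 2.18 to 10.49 CPM in the 4 strains, without overlap.

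Other genes higher in WIK belonged to several functions. Ptgs2b, a cyclooxygenase that makes prostaglandins, had 5.82, 5.46 and 3.53 CPM in uninjured WIK hearts, 15.2, 6.39 and 6.70 CPM at 1 dpci and 2.57, 3.62 and 6.42 CPM at 7 dpci, and the 4 strains had medians below 1 CPM at each stage. Its averaged log2 fold change was 2.71 (SE 0.37), and its relative ptgs2a differed by −1.59 (adjusted p = 0.40). Ptgs2b was not constant without WIK uninjured replicate 1 or 2, WIK 1 dpci replicate 55 or WIK 7 dpci replicate 61. Aebp1, an extracellular matrix protein that binds collagen, was between 40.5 and 77.1 CPM in WIK and between 11.2 and 47.6 CPM in the 4 strains, with a difference of 1.44 (SE 0.12). The RNA helicase ddx1, zyg11, which recruits substrates to a ubiquitin ligase, and the cap-binding protein eif4e2 were higher by 1.92 (SE 0.18), 1.54 (SE 0.14) and 1.05 (SE 0.12). Eif4e2 lay close to the threshold and fell below 2-fold on average when AB was left out of the reference (0.98), with 1 RUVg factor (0.99), without WIK 1 dpci replicate 56 (0.99) and without WIK 7 dpci replicate 61 (0.99). The uncharacterized genes CABZ01118738.1 and C25H12orf4 were higher by 3.34 (SE 0.27) and 1.75 (SE 0.22) without overlap of fish. Angptl2a, a secreted protein related to angiopoietins, was 2.01 to 7.34 CPM in the 9 WIK fish. The 35 fish of the 4 strains had a median of 0 CPM at each stage, although 1 KCL fish at 7 dpci had 8.475 CPM. Injured KCL fish had 5, 4 and 4 counts at 1 dpci and 7, 6 and 34 at 7 dpci, against 7 to 35 in WIK. The relative angptl2b had 9.47 CPM in WIK and 9.44 CPM in the 4 strains. Angptl2a was the 1 constant gene among 39 tested genes of lipid binding and transport (2.56%, against 0.521% of all genes). Of these 39 genes, 2 were higher and 3 lower in WIK on average over stages, or 12.8% against 6.44% of all genes. Cyp2aa1, a cytochrome P450, was 3.10 to 8.36 CPM in WIK, which exceeded AB, SAT and TL (means 1.03, 0.382 and 0.606 CPM) but not KCL (7.49 CPM). Of 109 tested genes of glutathione and drug metabolism, 7 were higher and 8 lower in WIK on average over stages, or 13.8% against 6.44% of all genes, and cyp2aa1 was the constant one (0.917%, against 0.521%).

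Cd28, the co-stimulatory receptor of T cells, was the second in size among the higher genes, with a log2 fold change of 6.25 (SE 0.51). No AB fish had a count of cd28, so this size depends in part on the small prior count that the method adds. The mean was 20.3 CPM in WIK and 1.06 CPM in the 4 strains. WIK fish had 23.6, 25.0 and 28.9 CPM when uninjured, 12.1, 0 and 32.97 CPM at 1 dpci and 9.54, 22.3 and 27.9 CPM at 7 dpci. The medians in the 4 strains were 0.107, 0 and 0.671 CPM, and the highest fish, an uninjured one, had 19.1 CPM. In 8 of the 9 WIK fish cd28 was at 9.54 CPM or more, and it was not detected in the remaining one. It was 1 of 2 genes of 6 tested T and NK cell markers that were higher on average (33.3%, against 6.44% of all genes in either direction), the other being nkl.4 with 1.98 (SE 0.52). The median difference of the 6 markers was 0.98, 2.32 and −0.96 at the 3 stages and 0.05 on average over stages. Outside the reference, cd28 had 27, 20 and 25 counts in uninjured NA fish, against 65, 87 and 82 in uninjured WIK fish. The TU fish at 7 dpci had 1, 25 and 17 counts. Cd28 was constant in every alternative and every fit with a library left out. Bulk libraries cannot tell more cells of a type from more RNA per cell.

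On the lower side, 2 constant genes had no read in any WIK fish. Sppl2, an intramembrane protease that cleaves membrane-anchored protein fragments (ENSDARG00000030448, chromosome 2, 37480669 to 37503009, plus strand), had 0 counts in 9 WIK libraries. The 4 strains had medians of 8.10 (4.05 to 14.6), 6.19 (4.5 to 8.67) and 7.16 CPM (3.79 to 11.4) at the 3 stages. Against a floor of 3 counts over the 9 WIK libraries, sppl2 was at least 84.7-fold lower in WIK. CU929150.1, an uncharacterized gene on the same chromosome (45159855 to 45162467), was likewise at 0 in WIK, against medians of 5.0, 5.83 and 5.66 CPM in the 4 strains, and was at least 80.4-fold lower. It lies 43 kb from eif4e2, which was higher in WIK. Of the 17 NA and TU fish, 7 had no count of sppl2 either and 5 had none of CU929150.1. Also close to 0 in WIK were slc16a7, a carrier of monocarboxylates such as lactate and pyruvate, and si:ch211-213a13.2. Slc16a7 had 3 counts summed over the 9 WIK libraries and 300 summed over the 35 libraries of the 4 strains. For si:ch211-213a13.2 these sums were 1 and 295. Where all 3 WIK fish of a stage had no count, the fitted fold change depends on the prior count of the method and is no bound. Its SE, derived from that fold change, depends on the prior count too. The same holds for higher genes where all fish of a reference strain at a stage had no count.

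Cdh13 and ecscr, which are expressed in vessels, were lower in WIK at every stage. Cdh13, a cadherin anchored in the membrane without a cytoplasmic tail (ENSDARG00000014215, chromosome 18, 13792490 to 14134035, plus strand), had 0, 0.287 and 0.353 CPM in uninjured WIK hearts, 1.72, 0.799 and 0.687 CPM at 1 dpci and 1.1, 3.07 and 1.67 CPM at 7 dpci. The 4 strains had medians of 31.8 (14.4 to 58.8), 16.8 (6.62 to 23.8) and 20.6 CPM (3.30 to 48.5). No WIK fish reached any fish of the 4 strains, and the differences were −6.99 (SE 0.70), −3.77 (SE 0.50) and −3.35 (SE 0.48). In the 4 strains cdh13 fell by 1.06 on the log2 scale at 1 dpci (adjusted p = 1.0e-04), and in WIK the change was 2.17 (adjusted p = 0.33). Ecscr, an endothelial surface protein, had 0.363, 0.287 and 0.353 CPM in uninjured WIK hearts, 0.344, 2.13 and 0.172 CPM at 1 dpci and 0.367, 0 and 0 CPM at 7 dpci, against 5.19 to 19.4 CPM in the 35 fish of the 4 strains. It was also at or near 0 in the 3 fish labeled uninjured NA and in 4 of the 5 injured TU fish. The endothelial marker cdh5 was 62.7 to 140.1 CPM in WIK and 43.7 to 123.3 CPM in the 4 strains (0.57, SE 0.12, less than 2-fold), and kdrl was 6.55 to 14.1 CPM in WIK and 4.73 to 20.9 CPM in the 4 strains (−0.25, adjusted p = 0.42). Of 16 tested endocardial and vascular markers, 1 was lower on average over stages, klf2a with −1.14 (SE 0.20), and this share of 6.25% was near the 6.44% of all genes.

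Several genes of antigen presentation were lower in WIK. Of 33 tested genes of MHC and antigen presentation, 3 were constant and lower in WIK (9.09%, against 0.521% of all genes), and on average over stages 9 were lower and 1 higher (30.3% against 6.44%), with a median difference of −0.53 over the list and −0.04 over all genes. The constant ones were tapbp.1 (tapasin, which holds class I molecules near the peptide transporter) and the proteasome subunits psmb12 and psmb13a. Tapbp.1 had 0, 0 and 0.353 CPM in uninjured WIK hearts, 0.344, 0 and 0 CPM at 1 dpci and 1.47, 0 and 0 CPM at 7 dpci, against medians of 5.62, 6.41 and 7.18 CPM in the 4 strains. Psmb13a had 0, 0 and 0 CPM, 0.517, 0.266 and 0 CPM and 0, 0.279 and 0 CPM in WIK at the 3 stages, against medians of 4.19, 7.42 and 5.36 CPM in the 4 strains. Psmb12 had 0, 0.862 and 0 CPM, 0, 0.533 and 0 CPM and 0, 0.279 and 0.279 CPM in WIK, against medians of 5.23, 10.9 and 5.12 CPM in the 4 strains. The averaged log2 fold changes were −4.93 (SE 0.53), −5.97 (SE 0.73) and −4.98 (SE 0.59). Low levels were not confined to WIK. Of the 17 NA and TU fish outside the reference, 7 were in the WIK range for tapbp.1, 6 for psmb13a and 7 for psmb12. Psmb12 was not constant without WIK uninjured replicate 1 or 3 or WIK 7 dpci replicate 58 or 60, and tapbp.1 without WIK 7 dpci replicate 60.

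These 3 genes lie within 105.9 kb of chromosome 19 (7038694 to 7144585 of GRCz11), a stretch chosen after the values were seen, and its other genes were examined beside them. Of 9 tested genes there, 7 were lower in WIK on average over stages (3.03% of all genes were), adding tapbp.2 (−3.63, SE 1.03), the class I gene mhc1uba (−8.74, SE 1.67), psmb9a (−3.94, SE 0.80) and the peptide transporter subunit tap2a (−2.19, SE 0.54). Mhc1uba had 0 to 0.279 CPM in WIK, against medians of 162 CPM in AB, 82.8 in KCL and 302 in SAT. TL was as low as WIK, with a median of 0.162 CPM and at most 1.00 CPM, so that mhc1uba did not separate WIK from TL (−1.77, adjusted p = 0.70). The class I gene mhc1uka was at low levels in all strains and did not pass. Psmb8a, a subunit of the immunoproteasome in the same stretch, was at 7.90 to 28.3 CPM in WIK, against 3.31 to 77.7 CPM in the 4 strains, and did not pass (−0.73, adjusted p = 0.23). Psmb8a and psmb13a overlap on the minus strand in the annotation, and psmb12, psmb9a and tap2a lie within their span on the plus strand. These genes belong to families of similar sequence, so reads may be shared or lost among copies. Subunits encoded elsewhere did not pass on average over stages or at any stage, with averages of 0.26 for psmb5, 0.13 for psmb6, 0.15 for psmb7 and 0.26 for psmb10. Of the light chains, b2ml did not pass either (−0.07, adjusted p = 0.91), and b2m did not pass on average (−0.53, adjusted p = 0.083) but was lower in WIK at 1 dpci (−1.29, adjusted p = 0.042). The class II gene mhc2dab was higher on average (4.51, SE 0.79), with 0 to 13.9 CPM in WIK and 0 to 8.72 CPM in the 4 strains.

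**Figure D3:**
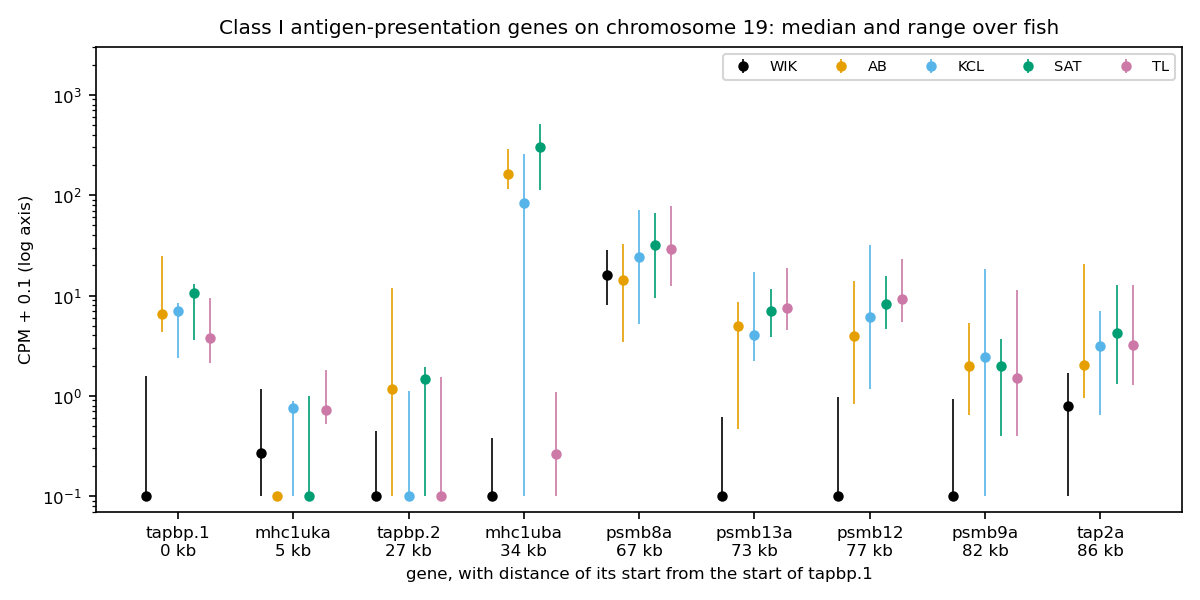
Level of the 9 tested genes in the chromosome 19 stretch (CPM plus 0.1, log axis), in order of position, with the distance in kb from the start of tapbp.1. Points are medians over the fish of a strain and lines run from the lowest to the highest fish (WIK, AB, KCL and TL 9 fish each, SAT 8); WIK lies at the bottom for tapbp.1, psmb13a and psmb12 and shares the low mhc1uba level with TL, and its psmb8a lies among the other strains.

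Further lower genes took part in transcription, protein folding and protease control. Taf13, a subunit of the general transcription factor TFIID, was 1.06 to 4.60 CPM in WIK and 6.35 to 24.2 CPM in the 4 strains, and all 17 NA and TU fish were above WIK too. Its difference was −2.36 (SE 0.19), with −2.47, −2.51 and −2.09 at the 3 stages. Hspa12b, a distant member of the Hsp70 family found in endothelial cells, was lower by −2.49 (SE 0.22), with 2.2 to 10.2 CPM in WIK and 7.68 to 51.7 CPM in the 4 strains. Hsph1, a co-chaperone of Hsp70, was higher by 1.61 (SE 0.21). These were the 2 constant genes among 93 tested chaperone genes (2.15%, against 0.521% of all genes), of which 3 were higher and 3 lower on average over stages, or 6.45% against 6.44%. Hsph1 was constant in 11 of 14 alternatives and in 38 of the 44 fits without 1 library, and was lost without any 1 of the 3 uninjured WIK fish. The zinc finger genes znf326 and znf1009 were lower by −4.35 (SE 0.47) and −2.49 (SE 0.34), the 2 constant members of 208 tested zinc finger genes (0.962%, against 0.521% of all genes). On average over stages 4 of the 208 were higher and 5 lower, or 4.33% against 6.44% of all genes. A separate gene that shares the symbol znf1009 did not pass, and znf1009 itself was constant in 12 of 14 alternatives and 39 of 44 fits without 1 library, being lost without WIK 1 dpci replicate 55 or 57 or any 1 WIK fish at 7 dpci. Znf326 no longer passed on average when SAT 1 dpci replicate 37 was left out (−3.90, adjusted p = 1), which left SAT with 1 fish at that stage. Serpinb14, a serpin-type protease inhibitor, aamdc and the phosphatase ppp5c were lower by −2.35 (SE 0.29), −2.63 (SE 0.28) and −1.13 (SE 0.14). Each was without overlap with the fish of the 4 strains at any stage. Of the 17 NA and TU fish, 10 were in the WIK range for serpinb14, 0 for aamdc and 1 for ppp5c. Ppp5c was below 2-fold on average when KCL was left out of the reference (−0.89). The uncharacterized si:ch73-311h14.2 was 0 to 0.727 CPM in WIK and 1.31 to 12 CPM in the 4 strains (−4.11, SE 0.34). CR318588.3, also uncharacterized, was 0 in 5 WIK fish and reached 8.62 CPM in the others, against 8.99 to 351 CPM in the 4 strains (−5.38, SE 0.66).

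A constant difference from the mean of 4 strains can come from WIK or from the mixture in the reference. Taken singly, 31 of the 56 higher and 25 of the 32 lower genes differed from each of AB, KCL, SAT and TL in the same direction with the same thresholds, which held for 0.438% and 0.74% of all genes (1.18% in either direction). Against AB, 49 higher and 31 lower genes passed, against KCL 44 and 28, against SAT 51 and 30, and against TL 49 and 30. Among the genes that failed against at least 1 strain, KCL was the nearest strain most often, for 9 higher and 4 lower genes. Zdhhc3b, named after its values were seen, did separate WIK (1.73 to 7.77 CPM) from all 35 fish of the 4 strains (at most 0.804 CPM), yet was as high in the pool of NA and TU, with a median of 5.98 CPM. Adding the 17 NA and TU fish, 13 higher and 6 lower genes kept WIK outside all fish of 6 strains at each stage (0.0888% and 0.0355% of all genes). The higher ones were calb1, fstl1a, zfp36l2, slc39a13, cacna1g, slc7a8a, ddx1, ckap5, nsl1, C25H12orf4, CABZ01118738.1, BX469912.7 and si:ch211-229b6.1, and the lower ones taf13, aamdc, ppm1h, cdh13, si:ch73-311h14.2 and CABZ01081752.1. With the same rule turned to each other strain, against the other 3 strains and WIK, AB had 33 higher and 3 lower constant genes, KCL 38 and 8, SAT 57 and 12 and TL 68 and 26. WIK was thus not apart in the number of higher genes, and its 32 lower genes were the largest such number among these 5 strains. The other strains were counted in this fit alone. Leaving out 1 library at a time gave 18 to 36 lower genes for WIK, a range that holds the 26 of TL.

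**Figure D4:**
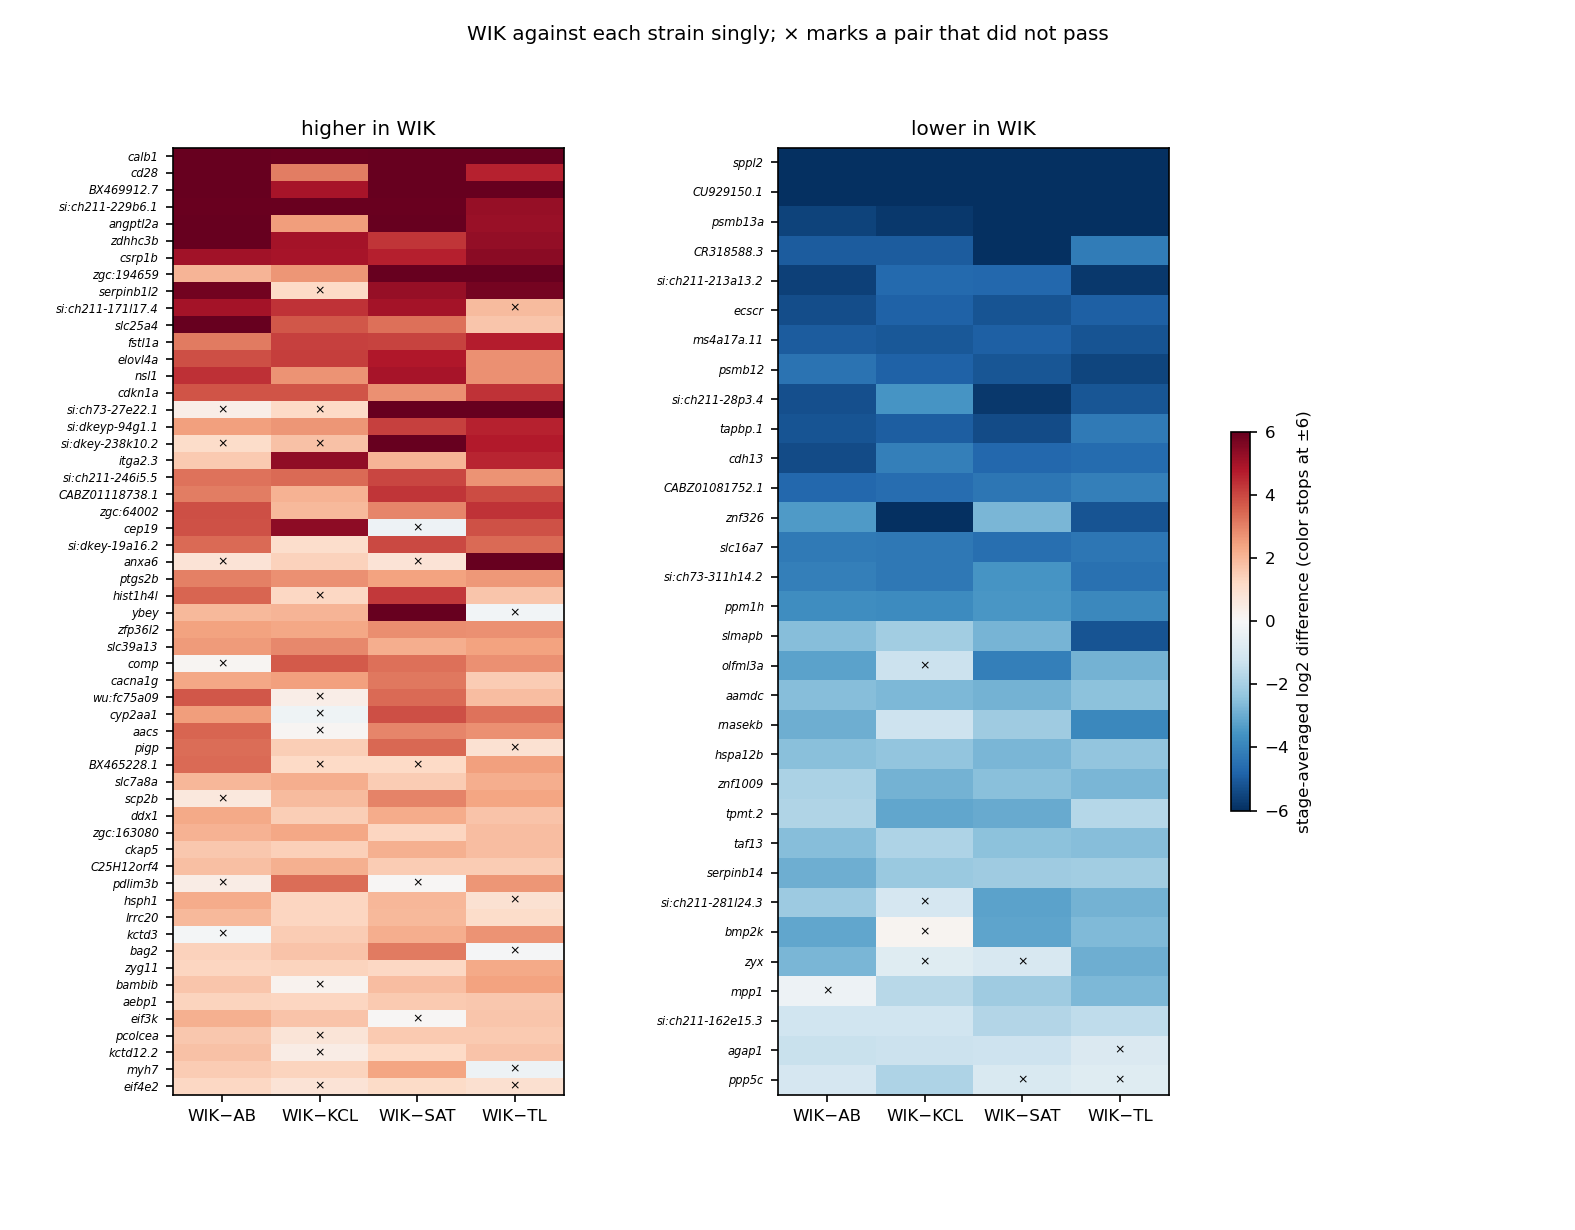
Stage-averaged log2 difference of WIK from AB, KCL, SAT and TL singly, for the 56 genes higher (left) and the 32 genes lower in WIK (right), sorted by the size of the difference. Red is higher and blue lower in WIK, the color stops at a difference of 6 in either direction, and a cross marks a pair that did not pass; 31 higher and 25 lower genes have no cross.

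A paralog with the a or b suffix, or a tandem copy, had been tested for 17 constant genes, and 1 of the 17 was called on average over stages, tapbp.2, a share near the 6.44% of all genes. Csrp1a differed by −0.53 (adjusted p = 0.071), slmapa by −0.26, rnaseka by −0.16, scp2a by −0.24 and angptl2b by 0.06, none of them called. Tpmt.1 was lower by −0.69 (adjusted p = 6.0e-04), less than 2-fold, beside −2.42 for tpmt.2. Counts of paralogs of similar sequence may be mixed up by alignment, and all strains were aligned to 1 genome assembly. Whether reads of each strain aligned equally well was not tested.

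Some constant genes lay close to each other, which was not tested. Of the 88 genes, 26 (29.5%) had another constant gene within 1 Mb, as did 13.4% of the 16802 other genes tested, and within 100 kb the shares were 5.68% and 2.11%. Neighbors did not always share a direction. Besides the class I stretch, zgc:64002 and BX469912.7 were both higher at 187 kb from each other, slmapb and taf13 both lower at 839 kb, and scp2b and cyp2aa1 both higher at 603 kb. Pcolcea was higher and rnasekb lower at 127 kb, and si:ch211-229b6.1 was higher and tpmt.2 lower at 164 kb. By chromosome, 7 constant genes lay on chromosome 2, 6 on each of chromosomes 19 and 23 and none on chromosomes 8 and 24, where 699 and 468 genes were tested.

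The constant genes were also compared between injured and uninjured hearts. In WIK, 3 of 88 (3.41%) changed at 1 dpci against uninjured hearts, compared with 4.96% of all genes, and 1 (1.14%) at 7 dpci, compared with 0.616%. In the 4 strains, 7 of 88 (7.95%) changed at 1 dpci, compared with 10.1% of all genes, and 4 (4.55%) at 7 dpci, compared with 2.44%. The changes in WIK were those of slc7a8a, rnasekb (−2.04), si:ch211-28p3.4 (−5.00, with 3 WIK fish at 0 CPM at 1 dpci) and, at 7 dpci, myh7. The 4 genes of the other strains at 7 dpci were fstl1a, myh7, pcolcea (1.2) and olfml3a (1.31), of which pcolcea, an enhancer of procollagen processing, was higher and olfml3a, a secreted matrix protein, lower in WIK at each stage.

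Oxidative phosphorylation and the malate-aspartate shuttle, which carries reducing equivalents into mitochondria, were subjects of the study and are given as values. Of 9 genes tested as a shuttle list, 1 was higher and 1 lower in WIK on average over stages, or 22.2% against 6.44% of all genes. The cytoplasmic malate dehydrogenase mdh1ab was higher by 1.06 (SE 0.22, adjusted p = 3.2e-04), with a mean of 75.4 CPM in WIK and 45.2 CPM in the 4 strains. Singly, mdh1ab differed from SAT by 2.90 and from AB, KCL and TL by 0.36, 0.73 and 0.26 (adjusted p = 0.53, 0.11 and 0.68), and without SAT in the reference the difference was 0.45 (adjusted p = 0.24). It also fell below 2-fold without WIK 1 dpci replicate 55 (0.90) or SAT 1 dpci replicate 36 (1.00). The lower gene of the list, slc25a10, is a dicarboxylate carrier and not a part of the shuttle itself. It was lower by −1.45 (SE 0.29, adjusted p = 2.9e-04). Got2b, mdh1aa and got2a were higher by 0.50, 0.44 and 0.39, less than 2-fold, and got1, mdh2, slc25a11 and slc25a12 did not pass. Of 100 tested nuclear genes of oxidative phosphorylation, 2 were lower on average, the assembly factors ndufaf3 (−1.22) and ndufaf7 (−2.39), and none was higher, so that the share called was below the 6.44% of all genes. The proliferation marker pcna differed by 0.48 (SE 0.17, adjusted p = 0.055).

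Markers of other cells were examined beside these genes, and their part in the differences was not tested. On average over stages 3.41% of all genes were higher and 3.03% lower in WIK. Of 12 tested macrophage markers, 3 were lower in WIK on average over stages (mpeg1.1 by −1.77, marco by −1.61 and grn1 by −1.84), or 25.0%. The summed macrophage markers of uninjured hearts were 95.2 to 296 CPM in WIK and 86.9 to 640 CPM in the 4 strains. The median difference of this list was −0.53, 0.03 and −0.56 at the 3 stages. Of its markers, 1 was called lower in uninjured hearts and 1 higher at 1 dpci. Of 13 tested erythroid markers, 4 were higher (hbba2 by 1.61, hbaa2 by 1.53, hbaa1 by 1.08 and slc4a1a by 1.04), or 30.8%. The erythroid sums in uninjured hearts were 6631 to 13500 CPM in WIK and 1567 to 15840 CPM in the 4 strains. They were 9027 to 22360 and 1643 to 10020 CPM at 1 dpci, and 5077 to 12740 and 3147 to 11490 CPM at 7 dpci. Called higher were 1 erythroid marker in uninjured hearts, 2 at 1 dpci and 0 at 7 dpci. At 7 dpci 5 of 10 neutrophil markers were higher in WIK (1.28% of all genes were), with sums of 5.87 to 204 CPM in WIK and 2.96 to 36.7 CPM in the 4 strains. The median difference of the neutrophil list was 3.03 at 7 dpci and −2.69 in uninjured hearts, where none was called, and none was called at 1 dpci or on average over stages. Among 19 ventricular cardiomyocyte markers, myh7 was the constant one (5.26%, against 0.521% of all genes).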

How the data were processed

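Gene counts of 61 zebrafish ventricles were used (QuantSeq 3′ mRNA FWD libraries, 1 fish each). The authors demultiplexed, trimmed and aligned the reads with bcl2fastq 2.20.0, Trim Galore 0.6.4 and STAR 2.7.6a against GRCz11, counted genes with STAR on Ensembl annotations, and deposited the raw counts per gene. The strand setting is not given in the sources used here. They also deposited log2 values of a normalized table, of which only the gene annotation was used here, as its values had already been variance-stabilized before the log2 was taken. Reads of 3′ ends do not grow with gene length, and all strains were aligned to 1 assembly.

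Genes that reached 1 CPM in any library (16890 of 32520) were tested with the edgeR 4.0.16 quasi-likelihood F-test (R 4.3.3, TMM, trended dispersion), with 1 mean for each strain and stage over all 61 libraries. NA and TU entered the spread only. The WIK mean was compared with the unweighted mean of AB, KCL, SAT and TL within each stage, with the strain means averaged on the log scale. P-values were adjusted by Benjamini-Hochberg over all genes, with thresholds of a 2-fold change and 0.05. Stage averages, dependence on stage and each strain singly came from the same fit, which was tested on simulated counts. DESeq2 1.42.0, upper-quartile scaling, an RUVg factor, other filters, thresholds and references, and leaving out each library were alternatives. Figures used Python 3.11.15 and matplotlib 3.10.9.

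Genes with 20 counts on average in the higher group and no overlap of fish at any stage were named (the 12 highest and 12 lowest, and up to 8 more in each direction with a descriptive symbol), with every constant gene in a list, mdh1ab, pcna and the shuttle genes. Other genes named were chosen after their values were seen, among them slc25a4, anxa6, csrp1b, zdhhc3b, slc16a7, rnasekb, tpmt.2 and the relatives of constant genes. The members and gene lists were chosen with earlier results of these data known.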

Additional observations from a re-analysis of the deposited data

Results flagged for a closer look

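By edgeR, 2 genes had a WIK difference that changed with stage, and neither was constant. Oaz2a, an antizyme that controls polyamine synthesis, was 12.8 to 18.1 CPM in WIK and 22.5 to 75.1 CPM in the 4 strains at 1 dpci, but 52.5 to 131 CPM in WIK and 34.9 to 90.2 CPM in the 4 strains at 7 dpci. Its differences were 0.40 in uninjured hearts, −1.69 at 1 dpci and 0.70 at 7 dpci on the log2 scale (adjusted p of the stage term = 0.004519, edgeR). Mt-nd6, a subunit of respiratory complex I encoded in mitochondria, was 107 to 194 CPM in WIK and 13.2 to 84.3 CPM in the 4 strains in uninjured hearts, without overlap, and 19.6 to 20.5 CPM in WIK and 7.47 to 55.9 CPM in the 4 strains at 1 dpci. Its differences were 1.98, −0.43 and 0.56 at the 3 stages (adjusted p = 0.01275, edgeR). Groups of 3 fish were too small for a search for single fish far from the others.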

How the results depend on the processing

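Of 2576 stage-averaged differences of named genes under alternatives, 2564 kept the stage-averaged call and 12 no longer passed. Direction was compared only for named genes that had passed on average in the fit described above, and 0 of these reversed. For named genes that had not passed, such as pcna, direction was not compared. The constant call, which needs all 3 stages, was lost more often. Of the 88 constant genes, 27 were constant in all 14 alternatives and all 44 fits without 1 library. Among the alternatives, a fold above 1.5 and adjusted p alone only loosened the threshold of the same fit. No constant gene could be lost in them, so a count out of 14 includes these sure passes. Without a filter on low counts, 393 genes were lower in uninjured hearts, 350 lower at 1 dpci, 356 higher and 284 lower at 7 dpci and 89 higher and 76 lower at all stages, and 322 depended on stage. With only libraries whose day label and title agreed, 141 were higher and 90 lower at 1 dpci, and 0 depended on stage. In that setting 40 higher and 23 lower genes were constant, with 61 of the 88 among them. Of the 88, 60 stayed constant without SAT in the reference, 69 without AB, 69 without TL and 74 without KCL. Leaving out 1 WIK fish kept 63 to 70 of them. Without SAT in the reference, 127 were higher at 7 dpci, and 10 depended on stage. With a stricter filter, 334 were higher on average and 5 depended on stage. At a fold above 1.5, 884 were higher and 797 lower on average, and 114 were higher than each strain. With adjusted p alone, 1162 were higher and 948 lower on average, and 135 were higher and 191 lower than each strain. Without KCL in the reference, 117 were higher and 218 lower than each strain, and 5 depended on stage. The genes that depended on stage numbered 55 by DESeq2, 4 with upper-quartile scaling, 4 in the 44 libraries of 5 strains and 7 without AB in the reference.

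Without 1 library at a time, higher and lower genes numbered 158 to 295 and 102 to 235 in uninjured hearts, 136 to 236 and 93 to 194 at 1 dpci, 126 to 225 and 59 to 144 at 7 dpci, 41 to 59 and 18 to 36 at all stages and 492 to 597 and 462 to 511 on average, and 1 to 7 genes depended on stage. The fits leaving out 1 library were not run for WIK against each strain singly. On average over stages 576 genes were higher and 512 lower, and in DESeq2 387 and 612. A replicate block on the numbers that WIK, KCL and TL share in uninjured hearts gave 320 higher and 385 lower genes, against 343 and 426 without it. The deviations of same-numbered fish correlated by −0.0133 to 0.091, and those of differently numbered fish by −0.0745 to 0.0614. These ranges overlap and rest on few fish, so they cannot settle whether the numbers pair fish. The cause of these changes was not tested. With 3 fish per group, differences near 2-fold and genes of a few CPM are the ones that depth and number limit.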

Other observations

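Outside the constant genes, some members of other lists passed on average over stages, as did 6.44% of all genes. Of 29 tested glycolysis genes, 3 were higher in WIK, which is 10.3% of the list. They were the phosphofructokinase pfkma by 2.83, the isomerase tpi1a by 1.30 and the lactate dehydrogenase ldhbb by 1.17 on the log2 scale. Their mean levels were low, at 2.835, 10.02 and 2.85 CPM in WIK and 0.4557, 4.077 and 1.289 CPM in the 4 strains. The summed glycolysis genes were at 14750 to 16700 CPM in uninjured WIK hearts and 9800 to 18320 CPM in the 4 strains. At each stage, the WIK sums lay inside the range of the 4 strains. Of 26 tested circadian genes, 3 were lower, the repressors nr1d2a by −1.35, bhlhe41 by −1.30 and ciarta by −1.76, which is 11.5%. Hour of sampling is not given in the sources used here, and its part was not tested. Acaa2, which catalyzes the last step of mitochondrial fatty acid oxidation, was higher by 2.93 (SE 0.43). It was 1 of 24 tested genes of that pathway to pass (4.17%, below the share of all genes). Its mean was 12.6 CPM in WIK and 7.20 CPM in the 4 strains. These means lie closer together than the fold change, which averages the strains on the log scale.

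The symbol actc1a, a cardiac actin, belongs to a pair of gene entries that went in opposite directions. One had 405 CPM in WIK and 216 CPM in the 4 strains (1.64, SE 0.28), and the other 22.2 CPM in WIK and 143 CPM in the 4 strains (−1.78, SE 0.49). Entries of similar sequence can share reads, so their separate levels are uncertain.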
